A study of Mus musculus with 24 samples.

Results

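Dermal papilla (DP) cells of mice in which Hdac1 and Hdac2 are deleted in the DP, though not in every cell of it, were compared between 2 resting phases of the hair cycle, the first telogen at P20 and the second at P60 (P, postnatal day). The comparison takes 6 of the 24 RNA-seq libraries of the study, 3 from dM1/2 mice at P20 and 3 from dM1/2 mice at P60, as their labels give genotype and age, and joins them by gene identifier. In dM1/2 mice ([Cor-cre/+; Hdac1Flox/Flox; Hdac2Flox/Flox]) both floxed genes are recombined by a Cre under the Corin promoter, which is active in the DP from after birth, on mixed FVB and C57BL/6J backgrounds. The 3 control libraries at each of the same ages come from mice that also carry Cor-cre/+ with floxed alleles of Hdac1, Hdac2 or both. They are set beside the dM1/2 libraries, and their labels do not say which allele combination each mouse had. The cells carried a Cre-dependent YFP label and were sorted from dissociated skin, so that a library reports the labelled cells of a mouse, some of which may keep Hdac1 or Hdac2, together with whatever else passed the sort, which does not reach full purity. The replicates are labelled as biological, and the mice of P20 and P60 are different animals. The question is what changes in these cells over the full hair cycle that lies between the telogens.

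The DP is a cluster of specialised fibroblasts at the base of the hair follicle. It instructs the epithelial stem cells above it through secreted Wnt agonists, FGFs and BMP inhibitors, and in telogen the follicle rests under restraining signals such as BMP4 until activating signals outweigh them. Hdac1 and Hdac2 are histone deacetylases that act in repressive chromatin complexes. The values are normalized reads, counts per gene scaled by each library's size factor, and log2 fold changes are differences of log2(normalized reads + 1). The P20 dM1/2 libraries held 11847207, 11635062 and 12823230 reads on genes and the P60 dM1/2 libraries 9724000, 8171944 and 9670389. The 10 genes with the most reads took 42.5%, 42.3% and 38.6% of the reads at P20 and 24.4%, 24.1% and 25.2% at P60. P60 dM1/2 replicate 1 stood apart from the other P60 libraries, with a summed level of markers of other dermal fibroblasts of 291043 normalized reads against 123636 and 117258, and counts without it are given beside those of the gene lists. The strand setting of the counting is not stated. Reads of genes that overlap another gene, as Alx4, Bmp4, Bmp6, Wnt5a, Aspn, Fbn2, Timp2, Timp3, Nlrc5 and Ccnd3 do, may therefore include those of the neighbour. A gene without reads in a library allows up to 3 reads, between 5.55 and 7.57 normalized reads in these libraries, by counting error alone.

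Hdac1 (ENSMUSG00000028800, chromosome 4 from 129516104 to 129542713 on GRCm38) had 216, 369.6 and 270.0 normalized reads in the dM1/2 libraries at P20 and 371, 347 and 318 at P60. Its ages overlapped, and its log2 fold change of 0.31 (SE 0.22, adjusted p = 0.432, limma) did not pass the threshold. The controls held 375, 511 and 505 at P20, each above the 3 dM1/2 libraries of that age, and 506, 359.9 and 376 at P60, where the genotypes overlapped. Hdac2 (ENSMUSG00000019777, chromosome 10 from 36974544 to 37001889) had 928, 839 and 838 at P20 and 699, 719 and 809.6 at P60 in dM1/2, with a log2 fold change of -0.23 (SE 0.13, adjusted p = 0.336, limma). Its P20 libraries were all above those of P60 without a call. The controls held 828, 952 and 852 at P20 and 775, 727 and 609 at P60, so that the genotypes overlapped at both ages (means of 877 in controls and 868 in dM1/2 at P20, and 703 and 743 at P60). Reads were counted over the whole gene. The shares of cells without deletion, of transcripts from recombined alleles and of other sorted cells in these values were not tested. None of the 9 other histone deacetylase genes tested was called between the ages in dM1/2 (limma, 1 with an unadjusted p under 0.05). For these genes edgeR called 0, and DESeq2 and a joint fit with the controls called 1 rise each. Without P60 dM1/2 replicate 1 or 3, 1 rose. In controls 2 of 9 rose, beside 6.12% of all genes tested there. Xist, the transcript of the inactive X, had 13861, 15875 and 15371 normalized reads at P20 and 21100.4, 26333 and 12306 at P60, and the Y-linked Ddx3y had 0 in all 6, as in female cells.

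Between the telogens, levels of much of the DP signature fell in the sorted dM1/2 libraries, from Sox18 and Wif1 to Bmp4 and Rspo3. Hedgehog target genes and the prolactin receptor were also lower at P60. The part of each library's share of DP cells in these values was not tested. Many complement, interferon-stimulated and MHC class I genes rose, as did the small proteoglycans Dcn and Prelp, the metalloprotease inhibitors Timp2 and Timp3, and 3 of 14 markers of other dermal fibroblasts. Of 14124 genes averaging 10 or more normalized reads, 892 (6.32%) differed between P20 and P60 dM1/2 at an adjusted p under 0.05 (limma, two-sided, Benjamini-Hochberg). 560 genes (3.96%) rose and 332 (2.35%) fell, and 650 changed by at least 1 on the log2 scale. The median log2 fold change over all genes tested was 0.01. In every called gene the 3 libraries of one age lay above the 3 of the other. With 3 libraries per age a call favours such genes, so this is not a separate result, and their share among all genes was not counted. The number of calls depended on single libraries, with 122, 100 and 116 genes without P20 dM1/2 replicates 1, 2 and 3 in turn, and 1772, 165 and 1415 without P60 dM1/2 replicates 1, 2 and 3. DESeq2 on the recovered reads called 1852, of which 1174 rose and 678 fell. A joint fit with the controls called 1192 rises and 755 falls, and leaving out P60 dM1/2 replicate 1 gave 1086 and 686. Without P60 dM1/2 replicate 3 they were 806 and 609. List counts from these settings stand beside these totals and not beside the shares of 3.96% and 2.35%. Of the genes called with all libraries, 886 were called in the same direction without P60 dM1/2 replicate 1 and 99 without P20 dM1/2 replicate 2. Of the 92 called genes whose log2 fold change is given here, 64, 71 and 65 lost the call without P20 dM1/2 replicates 1, 2 and 3 in turn, and 1, 67 and 5 without P60 dM1/2 replicates 1, 2 and 3, and none changed direction.

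**Figure D1:**
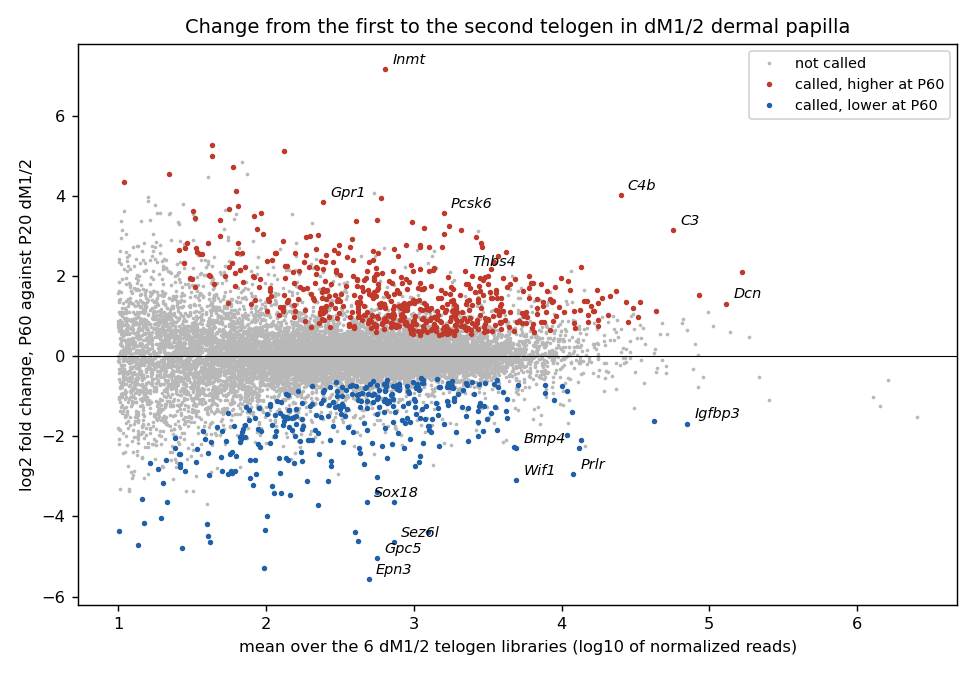
Log2 fold change of every gene tested between P60 and P20 dM1/2 against its mean level over the 6 libraries, with called genes in red (higher at P60) and blue (lower). The 560 rises and 332 falls are the coloured points, and some genes named in the text are labelled.

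The 3 P60 libraries did not lie equally far from P20. P60 dM1/2 replicate 1 had the highest value in 377 of the 560 genes that rose, against 91 and 92 for replicates 2 and 3. It had the lowest value in 184 of the 332 genes that fell, against 119 and 29. Relative to the P20 mean, the median deviation of the DP signature genes was -1.68, -1.40 and -0.64 on the log2 scale in the 3 P60 dM1/2 libraries, and that of markers of other dermal fibroblasts was 2.21, 0.87 and 0.86. Replicate 1 was thus at the far end on both lists, low for the DP genes and high for the other fibroblast genes. In the controls at P60 the same deviations were -0.50, -0.26 and 0.13 for the DP signature and 0.52, 0.26 and 0.05 for the other fibroblast markers. In sorted bulk cells, fewer cells of a type and less RNA per cell cannot be told apart, and the part of this library's makeup in the results was not tested beyond leaving it out.

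**Figure D2:**
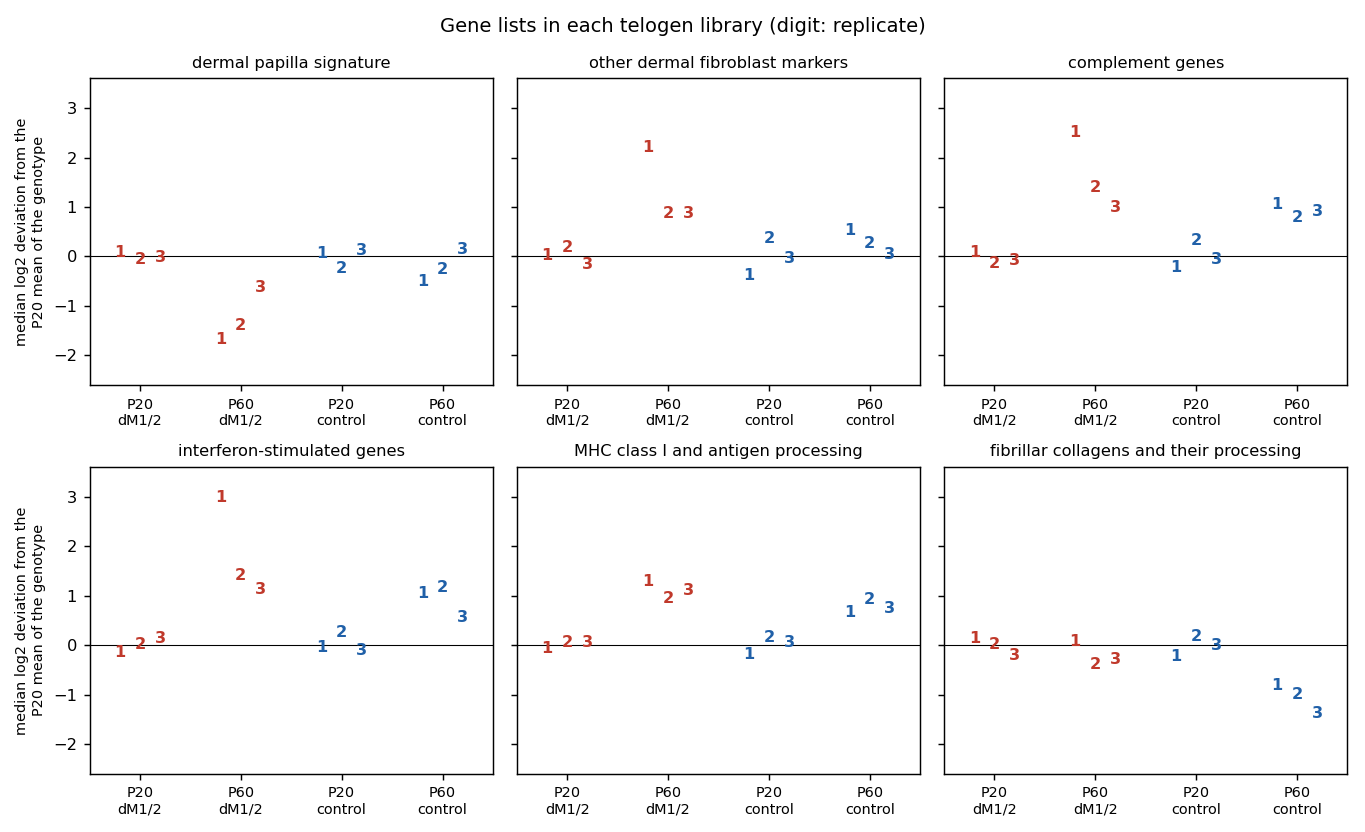
Median log2 deviation of the genes of 6 lists from the P20 mean of their genotype, in each telogen library (digits are replicate numbers; red dM1/2, blue control). Among dM1/2 libraries, P60 replicate 1 is lowest for the DP signature (-1.68) and highest for other fibroblast, complement and interferon genes.

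Of the named genes that fell, Epn3 (ENSMUSG00000010080, chromosome 11 from 94489599 to 94499974), an epsin that acts in endocytosis, had the largest fall. It had 514, 1536 and 869 normalized reads at P20 and 10.1, 22.6 and 23.5 at P60, a log2 fold change of -5.57 (SE 0.46, adjusted p = 0.00373, limma). Each P60 library was far below the lowest P20 library. The largest falls and rises were named among genes whose ages do not overlap. Gpc5, a heparan sulphate proteoglycan of the cell surface, had 1169, 1144 and 952 at P20 and 12.6, 35.2 and 70.6 at P60. Its log2 fold change was -5.05 (SE 0.53, adjusted p = 0.00562, limma). Sez6l, a membrane protein known from neurons, went from 1562, 1574 and 1049 at P20 to 27.8, 50.3 and 113 at P60, with a log2 fold change of -4.64 (SE 0.46, adjusted p = 0.00562, limma). The ages were far apart in each of these genes, and replicate 1 was the lowest P60 library in all of them. Eva1a, a regulator of autophagy, had 452, 1000.3 and 958 at P20 and 15.1, 30.2 and 58.8 at P60 (log2 fold change -4.61). Pcdh15, a protocadherin of the tip links of inner-ear hair cells, had 700.4, 542 and 1001 at P20 and 10.1, 42.7 and 84.7 at P60 (log2 fold change -4.39). Slc12a1, the kidney Na-K-Cl cotransporter, had 4123, 1549 and 1417 at P20 and 48.0, 62.9 and 322 at P60 (log2 fold change -4.38). Kcnmb4, a subunit of the BK potassium channel, followed with a log2 fold change of -4.33. All of these fell in the controls too, except Kcnmb4, which did not pass the threshold there (log2 fold change -1.88, adjusted p = 0.0596, limma).

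Other large falls were of genes with few reads at P60. Orm1, a plasma acute-phase protein, had 107, 135 and 318 normalized reads at P20 and 0, 5.03 and 11.8 at P60, a log2 fold change of -5.30 (SE 0.92, adjusted p = 0.0202, limma). Saa3, an acute-phase apolipoprotein, had 123, 55.3 and 53.6 at P20 and 0, 5.03 and 4.71 at P60. Lcn2, which binds bacterial siderophores, had 29.6, 48.7 and 77.7 at P20 and 0, 0 and 4.71 at P60. In Saa3 and Lcn2 every P60 library held 3 reads or fewer, so that no fold is given, as also in Mycbpap (50.02, 79.7 and 109 at P20 and 2.52, 7.54 and 0 at P60). Orm1, Saa3 and the histone gene Hist1h2ae (29.6, 81.9 and 111 at P20 and 12.6, 0 and 2.35 at P60) have near-identical copies in the genome between which reads may have been split, so that their values are uncertain.

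The largest rise among the named genes was Inmt (ENSMUSG00000003477, chromosome 6 from 55170626 to 55175043), a methyltransferase of indolamines, with 4.55, 19.9 and 3.70 normalized reads at P20 and 1883, 1212 and 708 at P60. Its log2 fold change was 7.17 (SE 0.60, adjusted p = 0.00373, limma). Its P60 libraries were far above its P20 libraries, as also in the controls (40.2, 2.71 and 20.1 at P20 and 1843, 1101 and 971 at P60). Gpr1, a receptor for chemerin, had 34.1, 26.6 and 31.4 at P20 and 523, 458 and 395 at P60, a log2 fold change of 3.86 (SE 0.23, adjusted p = 0.00114, limma). Pcsk6, a proprotein convertase that processes TGF-beta family ligands, had 173, 332 and 233 at P20 and 3888, 2187 and 2730.0 at P60, with a log2 fold change of 3.58 (SE 0.28, adjusted p = 0.00373, limma). In both genes every P60 library was far above every P20 library. In the controls Pcsk6 was already at 1602, 3030.0 and 1253 at P20 and had 3411, 2659.8 and 1565 at P60, without a call. The P20 control libraries were above the P20 dM1/2 libraries. Unc5a, a netrin receptor, had 2.27, 0 and 12.9 at P20 and 217, 75.4 and 49.4 at P60 (log2 fold change 4.72). Scel, a precursor of the cornified envelope, rose with a log2 fold change of 3.76. Stk32b, a kinase, had a log2 fold change of 3.68 and Dnah6, an axonemal dynein, of 3.62. Krt36, a hair keratin, had 6.82, 2.21 and 5.55 at P20, where no library held more than 3 reads, and 242, 52.8 and 65.9 at P60. Ces1d, a lipid hydrolase with close copies that make its value uncertain, had 18.2, 0 and 11.1 at P20 and 422, 259 and 89.4 at P60 (log2 fold change 5.13).

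**Figure D3:**
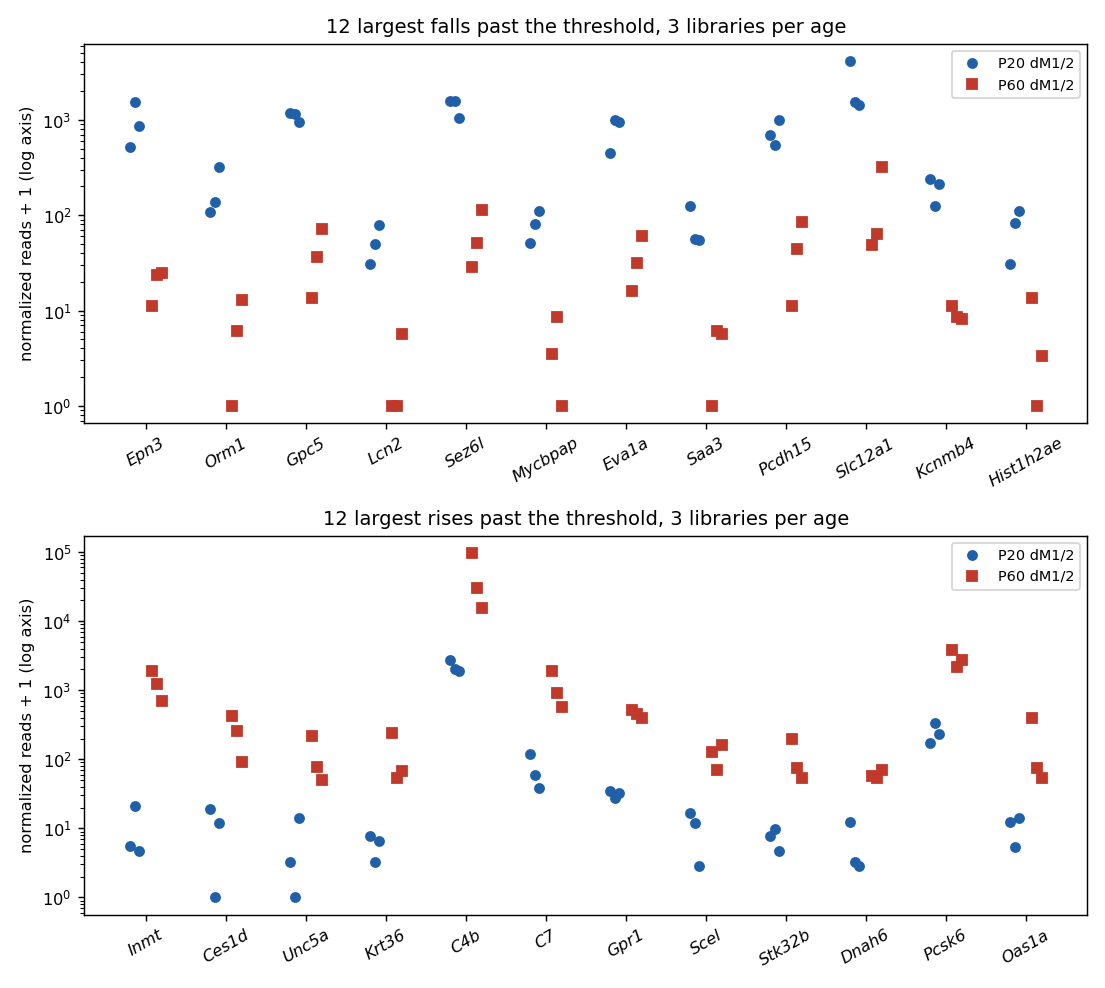
Normalized reads + 1, on a log axis, of the 12 largest falls and the 12 largest rises among named genes past the threshold, with a point for each of the 3 libraries at P20 (blue circles) and P60 (red squares) dM1/2. Genes were chosen among those whose ages do not overlap.

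The DP signature list holds 44 genes that mark these cells in skin, and all 44 were tested. This list and the others were chosen with earlier results of these data known. The shares of calls in the lists are thus descriptions and not tests of them. Of the 44 genes none rose and 17 fell (limma), beside 2.35% of all genes tested that fell. Their median log2 fold change was -1.25 beside 0.01 over all genes. Sox18 (ENSMUSG00000046470, chromosome 2 from 181669836 to 181671640), a transcription factor that some hair types need in the DP, had 923, 874 and 888 normalized reads at P20 and 83.3, 62.9 and 68.2 at P60, a log2 fold change of -3.64 (SE 0.18, adjusted p = 0.000525, limma). It had the smallest adjusted p of the named genes and narrow ranges at both ages. Wif1, a secreted Wnt inhibitor, had 12224, 5057 and 9014 at P20 and 674, 754 and 1763 at P60, a log2 fold change of -3.09 (SE 0.42, adjusted p = 0.0107, limma). Sostdc1, which inhibits both Wnt and BMP, had 1435, 653 and 934 at P20 and 85.8, 146 and 132 at P60, with a log2 fold change of -3.01 (SE 0.32, adjusted p = 0.00592, limma). Cxcr4, the receptor of Cxcl12, had 659, 854 and 862 at P20 and 85.8, 126 and 160.0 at P60, with a log2 fold change of -2.70 (SE 0.25, adjusted p = 0.00562, limma). In these genes the highest P60 library was below the lowest of P20. Corin, the protease whose promoter drives the Cre, had 1203, 644 and 716 at P20 and 151, 133 and 299 at P60, a log2 fold change of -2.17 (SE 0.35, adjusted p = 0.0165, limma). The homeobox gene Alx4 had 4366, 3627 and 3355 at P20 and 790.2, 669 and 1240.2 at P60 (log2 fold change -2.11). Igfbp3, the gene of the list with the most reads, had 104120.3, 94217 and 121264 at P20 and 23032, 32332 and 47953 at P60 (log2 fold change -1.69). Enpp2, which makes lysophosphatidic acid, Cntn1, a neural adhesion molecule, and Hey2, a Notch target, also fell, with log2 fold changes of -1.39, -1.07 and -1.23.

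Other DP genes had lower means at P60 without a call. Lef1, the nuclear mediator of Wnt signals, had 3647, 2521 and 2266 normalized reads at P20 and 192, 774 and 1374 at P60, and its log2 fold change was -2.22 (adjusted p = 0.0773, limma). Notum, which inactivates Wnt ligands, had 9332, 3839.8 and 6192 at P20 and 479.7, 1443 and 4137 at P60 (log2 fold change -2.09, adjusted p = 0.117, limma). Replicate 1 was the lowest and replicate 3 the highest at P60 in both. Crabp1 had 7724, 3592 and 4341 at P20 and 1149, 3495 and 8964 at P60, and Prdm1 3413, 3127 and 2937 at P20 and 588, 1760.0 and 4693 at P60, so that the ages overlapped. The proteoglycan Vcan had 16719.7, 12579 and 17938 at P20 and 10482, 8778 and 10786 at P60, and the ages did not overlap. Sox2, a mark of the DP of some hair types, had 107, 135 and 72.1 at P20 and 17.7, 47.8 and 63.5 at P60 (log2 fold change -1.40, adjusted p = 0.135, limma). 6 genes of the list had a positive fold, of which Msx1, a BMP-responsive homeobox gene, had the highest with 61.4, 75.2 and 88.8 at P20 and 298, 146 and 146 at P60. The falls of the list numbered 4, 6 and 6 without P20 dM1/2 replicates 1, 2 and 3 in turn, and 24, 5 and 26 without P60 dM1/2 replicates 1, 2 and 3, with medians from -1.56 to -1.09. A single gene rose without P60 dM1/2 replicate 1 or 3, and DESeq2 called 1 rise and 26 falls and a joint fit with the controls 1 and 29. In the controls 5 of the 44 genes rose and 9 fell (background 6.12% and 6.45% of 13900 genes), with a median of -0.18. Crabp1 and Notum rose there, with log2 fold changes of 1.79 and 1.24.

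**Figure D4:**
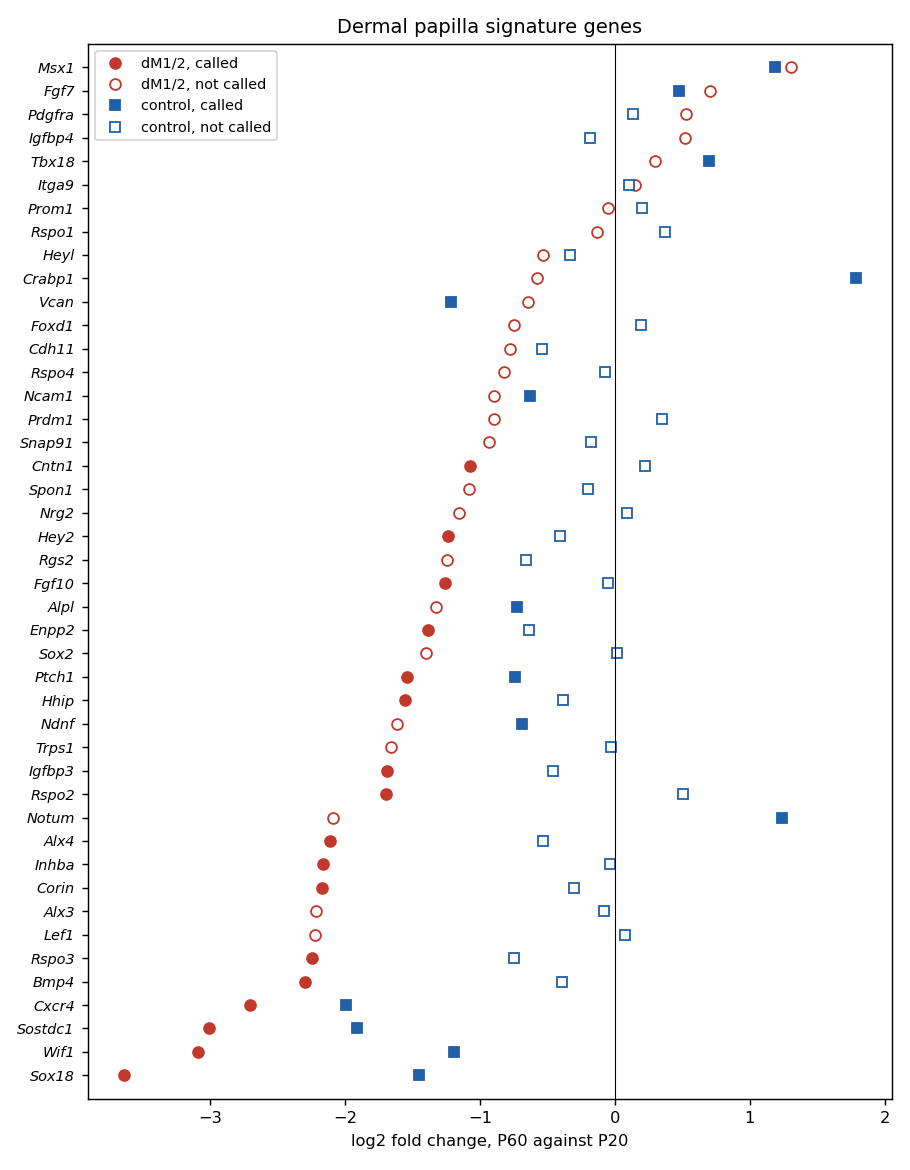
Log2 fold change between P60 and P20 of the DP signature genes in dM1/2 (red circles) and controls (blue squares); filled symbols passed the threshold. The median is -1.25 in dM1/2 and -0.18 in controls.

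Markers of other skin cells were read in the same libraries. Of 14 markers of other dermal fibroblasts, 3 rose and none fell (limma), beside 3.96% and 2.35% of all genes tested. Their median log2 fold change was 1.36 (controls 0.34). DESeq2 called 11 rises, a joint fit with the controls 9 and edgeR with TMM 3. Their summed level was 68011, 72581 and 55437 normalized reads at P20 and 291043, 123636 and 117258 at P60, and Cd34, with the most reads among them, had 16413, 19305 and 13807 at P20 and 40146, 27743 and 25457 at P60. Pi16, a mark of fibroblast progenitors of the fascia and vessel surroundings, had 6214, 4968 and 3203 at P20 and 30696, 18654 and 17876 at P60, a log2 fold change of 2.23 (SE 0.30, adjusted p = 0.0106, limma). Thbs4 had 625, 889.7 and 788 at P20 and 6279, 2487 and 2351 at P60, with a log2 fold change of 2.13 (SE 0.36, adjusted p = 0.0193, limma), and Clec3b 8939, 7929.6 and 5661 at P20 and 31393, 16258 and 14309 at P60, with a log2 fold change of 1.40 (SE 0.32, adjusted p = 0.0432, limma). Replicate 1 was the highest in each, and the other P60 libraries were also above all P20 libraries. All 14 had reads in every library at P20 as well. Their median was positive and that of the DP signature negative, but 11 of the 14 were not called and 1 had a negative fold. Their part in the fall of the DP signature was not tested. Their rises numbered 1, 0 and 1 without P20 dM1/2 replicates 1, 2 and 3 in turn, and 8, 1 and 8 without P60 dM1/2 replicates 1, 2 and 3, with medians from 0.87 to 1.58. In addition 1 fell without P60 dM1/2 replicate 1.

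None of 11 keratinocyte markers was called (limma; 1 had an unadjusted p under 0.05, edgeR called 0, and DESeq2 and the joint fit 1 rise each), and their sums were 1219, 1421 and 2038 normalized reads at P20 and 1499.6, 1602 and 2289.9 at P60, with the most reads on Lgr5. The calls in the lists that follow stand beside the 3.96% of all genes tested that rose and the 2.35% that fell. Melanocyte markers summed to 1901, 1580.2 and 1894 at P20 and 3219, 1685 and 1654 at P60. Over both ages together Mitf had the most reads among them, while at P20 Ednrb was above it in replicates 1 and 3. Of 7 tested, Mlana rose (log2 fold change 2.65, adjusted p = 0.0454, limma) and Ednrb fell (log2 fold change -1.38, adjusted p = 0.034, limma). Endothelial markers summed to 1889.6, 1702 and 1385 at P20 and 6700.2, 2912 and 1676 at P60. Tek had the most reads among them over both ages together, with 357, 339 and 207 at P20 and 5112, 1292 and 699 at P60. Flt1 fell (log2 fold change -1.09, adjusted p = 0.0317, limma). At P20 Flt1 was above Tek in replicates 1 and 3, with 423 and 264. Immune markers summed to 1092, 702 and 825 at P20 and 1792, 724 and 800.2 at P60, with the most reads on Csf1r. Cd74, the invariant chain of MHC class II, rose among 9 immune markers tested, from 88.7, 62.0 and 68.4 at P20 to 217, 133 and 174 at P60 (log2 fold change 1.24, adjusted p = 0.0389, limma). Among 13 smooth muscle and pericyte markers limma called none (2 had an unadjusted p under 0.05), edgeR 0, and DESeq2 and the joint fit 1 fall each, with sums of 21395, 31178 and 28088 at P20 and 16387, 23813 and 28158 at P60 and the most reads on Cspg4. None of 8 adipocyte markers was called by limma, edgeR or DESeq2 (1 had an unadjusted p under 0.05). Their sums, mostly Lpl, were 2210.2, 5604 and 4098 at P20 and 15584, 5019 and 3205 at P60, with replicate 1 again the highest. Schwann cell markers summed to 614, 547 and 708 at P20 and 1366, 1046 and 1061 at P60. Ngfr had the most reads among them over both ages together. Mbp rose (log2 fold change 2.16, adjusted p = 0.0195, limma), and at P60 it was above Ngfr in replicates 1 and 2. Skeletal muscle markers, mostly Des, summed to 729.9, 1363 and 1226 at P20 and 442, 825 and 944 at P60, and the muscle creatine kinase Ckm fell (log2 fold change -2.96, adjusted p = 0.0393, limma). Erythroid markers summed to at most 50.3 in any of the 6 libraries, with the most reads over both ages together on Alas2. DESeq2 and the joint fit each called 2 rises and 1 fall of melanocyte, 1 and 1 of endothelial, 2 and 0 of immune, 1 and 0 of Schwann cell and 0 and 2 of skeletal muscle markers. In the melanocyte, endothelial, immune, Schwann cell and skeletal muscle lists none was called without any 1 of the P20 dM1/2 libraries or without P60 dM1/2 replicate 2. Without P60 dM1/2 replicate 1 the adipocyte median was 0.33 instead of 0.97, and no adipocyte, 1 keratinocyte and 2 smooth muscle markers rose. Without the same library 1 rose and 1 fell of the melanocyte markers, 1 and 1 of the endothelial, 1 and 1 of the immune, 1 and 0 of the Schwann cell and 0 and 2 of the skeletal muscle markers. Leaving out P60 dM1/2 replicate 3 gave 2 rises and 1 fall of melanocyte, 1 and 1 of endothelial, 0 and 0 of immune, 1 and 1 of smooth muscle, 1 and 0 of Schwann cell, 0 and 1 of skeletal muscle and 1 and 0 of adipocyte markers. Cd74 was called without P60 dM1/2 replicate 1, and not without any other library.

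Among signals that promote the growth phase, 3 of 21 genes rose and 6 fell, beside 3.96% and 2.35% of all genes tested. Their median log2 fold change was -0.43 (controls -0.05). The R-spondins strengthen Wnt signals at the receptor. Rspo3 had 989, 1182 and 830.4 normalized reads at P20 and 159, 168 and 334 at P60, a log2 fold change of -2.25 (SE 0.30, adjusted p = 0.00998, limma). Rspo2 had 391, 164 and 187 at P20 and 83.3, 57.8 and 70.6 at P60, with a log2 fold change of -1.70 (SE 0.35, adjusted p = 0.034, limma). Rspo1 (1242, 932 and 838 at P20 and 583, 1026 and 1236 at P60) and Rspo4 (421, 398 and 369.9 at P20 and 90.9, 244 and 501 at P60) overlapped between the ages. Inhba, which encodes the activin A subunit, had 2363, 1337 and 1749.6 at P20 and 202, 327 and 925 at P60, with a log2 fold change of -2.16 (SE 0.50, adjusted p = 0.0457, limma). Bambi, a decoy receptor of the TGF-beta family, had 1098, 1279 and 1321 at P20 and 242, 319 and 447 at P60, with a log2 fold change of -1.91 (SE 0.23, adjusted p = 0.00841, limma). Both were lowest in replicate 1 and highest in replicate 3 at P60, below all P20 libraries. Fgf10 fell from 2938, 3240.0 and 2684 at P20 to 1439, 918 and 1405 at P60 (log2 fold change -1.26), and Pdgfc, a ligand of the PDGF receptors, from 1235, 1119.8 and 934 at P20 to 447, 312 and 299 at P60 (log2 fold change -1.65). In the other direction, Hgf, a mitogen of follicle keratinocytes, had 72.8, 157 and 129 at P20 and 414, 314 and 377 at P60, a log2 fold change of 1.67 (SE 0.30, adjusted p = 0.0219, limma). Grem1, a secreted BMP inhibitor, had 593, 1084 and 773 at P20 and 1729, 2595 and 3010.0 at P60, with a log2 fold change of 1.59 (SE 0.27, adjusted p = 0.0195, limma). Kitl, the ligand that melanocytes need, had 850.4, 1239 and 1457 at P20 and 2651, 2713 and 2662 at P60, with a log2 fold change of 1.21 (SE 0.20, adjusted p = 0.0171, limma). Fgf7 had 1478, 772 and 703 at P20 and 1921, 1385 and 1308 at P60, overlapping, and Wnt5a 3806, 4397 and 3669 at P20 and 3784, 3575 and 4248 at P60. In Fgf7 and Wnt5a no call was made. Falls among these signals numbered 2, 2 and 3 without P20 dM1/2 replicates 1, 2 and 3 in turn, and 8, 3 and 8 without P60 dM1/2 replicates 1, 2 and 3. Their rises numbered 1, 1 and 1 without P20 dM1/2 replicates 1, 2 and 3 in turn, and 3, 0 and 3 without P60 dM1/2 replicates 1, 2 and 3.

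Of 21 signals known to hold the follicle in telogen, 18 were tested (median -0.22, controls -0.05). Of these 1 rose and 3 fell, beside 3.96% and 2.35% of all genes tested. The rise was Id3, which is a target of BMP signals and not itself a restraining signal, and which is also in the readout list below. Bmp4, the main BMP ligand of the DP, had 7497, 7476 and 9242 normalized reads at P20 and 896, 1883 and 2568 at P60, a log2 fold change of -2.30 (SE 0.35, adjusted p = 0.0136, limma). Wif1 and Sostdc1, described above, were the other falls. Bmp2 (2021, 1159.7 and 1718 at P20 and 911, 1252 and 1904 at P60) and Bmp6 (223, 217 and 209 at P20 and 258, 116 and 125 at P60) overlapped between the ages. Id3, a transcriptional target of BMP signals, rose from 2879, 2297 and 2741 at P20 to 4155, 4189 and 3874 at P60 (log2 fold change 0.63, adjusted p = 0.0379, limma), in the opposite direction to Bmp4. Fgf18, which prolongs telogen, had 91.0, 55.3 and 37.0 at P20 and 247, 131 and 87.1 at P60. Csf1 had 6556, 3475 and 3893 at P20 and 16584, 7849.8 and 9797 at P60. Summed over both ages it had the most reads in the list, though Bmp4 was above it in each P20 library. The Wnt inhibitors Dkk2 (5444, 5451 and 7337 at P20 and 1509.7, 3777 and 6507 at P60) and Sfrp1 (1976, 1629 and 1996 at P20 and 6157, 1893 and 1643 at P60) overlapped between the ages. Fgf5, Osm and Dkk1 were too low to test, with at most 22.1 normalized reads in any library. Of 16 readout genes of BMP and TGF-beta, 1 rose and 1 fell, namely Id3 and Bambi. These counts were near the 3.96% and 2.35% of all genes tested. Falls among the telogen signals numbered 1, 2 and 1 without P20 dM1/2 replicates 1, 2 and 3 in turn, and 4, 1 and 4 without P60 dM1/2 replicates 1, 2 and 3, with medians from -0.31 to -0.08. Id3 rose with all libraries, and the list had 2 rises without P60 dM1/2 replicate 1, 1 without P60 dM1/2 replicate 3 and 0 without any other. Of the BMP and TGF-beta readout genes 2 rose and 2 fell (median -0.11) without P60 dM1/2 replicate 1 and 1 rose and 2 fell (median -0.09) without P60 dM1/2 replicate 3, while without any other library none rose and 1 fell. The telogen list had 2 rises and 3 falls with DESeq2 and 2 and 4 in a joint fit with the controls, and the readout list 2 rises and 2 falls with DESeq2 and 3 and 2 in the joint fit.

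Wnt target genes had a median log2 fold change of -0.59 over 16 tested (controls -0.14). Wif1 fell among them, as did Lgr6, an R-spondin receptor, from 2349, 1531 and 1653 at P20 to 159, 375 and 569.5 at P60 (log2 fold change -2.48, adjusted p = 0.0195, limma). Myc, a growth regulator that many signals induce, rose from 2413, 1578 and 2650.3 at P20 to 6647, 3671 and 4495 at P60 (log2 fold change 1.15, adjusted p = 0.0464, limma). Falls among the Wnt targets numbered 0, 1 and 0 without P20 dM1/2 replicates 1, 2 and 3 in turn, and 4, 0 and 9 without P60 dM1/2 replicates 1, 2 and 3, and their median was -0.39 without P60 dM1/2 replicate 1 and -0.87 without P60 dM1/2 replicate 3. Myc was still called without P60 dM1/2 replicate 1, and not without any other library. DESeq2 called 1 rise and 4 falls in the Wnt list and a joint fit with the controls 1 and 6. In the hedgehog pathway, 4 of 11 genes fell and none rose (limma), beside 2.35% and 3.96% of all genes tested. The median was -0.36 (controls -0.21 with 1 rise and 1 fall, beside 6.12% and 6.45% of all genes tested there). The members that fell are known targets that the pathway induces. Gli1, its transcription factor, had 2076, 2005 and 2034 normalized reads at P20 and 348, 679 and 706 at P60, a log2 fold change of -1.89 (SE 0.26, adjusted p = 0.0111, limma). Ptch1, the receptor that pathway activity induces, had 6612, 7027 and 5225 at P20 and 1739, 1893 and 2979 at P60, with a log2 fold change of -1.54 (SE 0.23, adjusted p = 0.0127, limma). Hhip, a decoy of the ligands, had 2153, 1365 and 1816 at P20 and 634, 453 and 729.6 at P60, with a log2 fold change of -1.56 (SE 0.23, adjusted p = 0.0131, limma). All P60 libraries were below all P20 libraries in these genes. The falls of the list numbered 0, 1 and 2 without P20 dM1/2 replicates 1, 2 and 3 in turn, and 5, 1 and 4 without P60 dM1/2 replicates 1, 2 and 3. It had 1 rise without P60 dM1/2 replicate 1, and DESeq2 called 2 rises and 4 falls. In the controls, Gli1 had 1288, 1023 and 1391 at P20 and 1026, 1046 and 1118 at P60, without a call. Ptch1 fell there too (log2 fold change -0.74, adjusted p = 0.0339, limma), while Hhip was not called (-0.39, adjusted p = 0.137, limma).

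Interferon-stimulated genes are genes that cells switch on when they sense interferons. Of 32 tested, 14 rose and none fell (limma), beside 3.96% of all genes tested that rose, and all 32 had a positive fold, with a median of 1.78. The rises numbered 18 with edgeR and TMM, 28 with DESeq2 and 27 in a joint fit with the controls, and none of these called a fall. Over all genes these fits called 598, 1174 and 1192 rises. An element known from promoters of interferon-stimulated genes, the interferon-stimulated response element, holds GAAA, any 2 bases and GAAA again. Searched on both strands of the window from 250 bases before to 50 bases after each gene's start (RefSeq, GRCm38.p6), this core was in 3.44% of 32851 promoters. It was in 15 of the 24 list genes with a promoter entry, and in 9 of the 13 with an entry that rose. A list gene counted if any of its entries held the core, while the 3.44% is of single entries, so that these shares are not of like units. Such a match is a description of the letters and not evidence of binding. Promoters of 4 genes that rose are shown, with the core in capitals, to let the motif be seen in each. Capitals such as TTTCACTTTC are its reverse strand, and in Oas1a a pair of matches overlap. Ifit1 (chr19:34640639-34640938, plus strand) and Oas1a (chr5:120907476-120907775, minus strand) are among the 3 called members of largest log2 fold change, and Gbp2 (chr3:142620413-142620712, plus strand) and the MHC class I light chain B2m (chr2:122147437-122147736, plus strand) were chosen after their values were seen.
Ifit1: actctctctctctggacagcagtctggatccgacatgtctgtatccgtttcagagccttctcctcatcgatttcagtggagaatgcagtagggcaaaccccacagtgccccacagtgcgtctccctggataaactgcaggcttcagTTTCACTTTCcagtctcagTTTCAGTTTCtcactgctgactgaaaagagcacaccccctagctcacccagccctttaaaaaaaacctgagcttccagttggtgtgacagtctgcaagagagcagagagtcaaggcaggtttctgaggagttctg
Oas1a: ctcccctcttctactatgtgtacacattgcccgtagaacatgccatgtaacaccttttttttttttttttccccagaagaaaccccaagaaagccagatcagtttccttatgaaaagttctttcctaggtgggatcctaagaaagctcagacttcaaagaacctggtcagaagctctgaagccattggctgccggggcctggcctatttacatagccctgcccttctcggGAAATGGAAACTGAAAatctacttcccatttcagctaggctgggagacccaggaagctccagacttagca
Gbp2: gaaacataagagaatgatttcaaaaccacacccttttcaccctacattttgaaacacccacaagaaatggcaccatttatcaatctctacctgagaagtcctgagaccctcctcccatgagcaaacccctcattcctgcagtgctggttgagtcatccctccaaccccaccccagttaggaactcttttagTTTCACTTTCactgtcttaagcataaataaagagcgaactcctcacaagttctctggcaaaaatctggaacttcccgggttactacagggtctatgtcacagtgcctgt
B2m: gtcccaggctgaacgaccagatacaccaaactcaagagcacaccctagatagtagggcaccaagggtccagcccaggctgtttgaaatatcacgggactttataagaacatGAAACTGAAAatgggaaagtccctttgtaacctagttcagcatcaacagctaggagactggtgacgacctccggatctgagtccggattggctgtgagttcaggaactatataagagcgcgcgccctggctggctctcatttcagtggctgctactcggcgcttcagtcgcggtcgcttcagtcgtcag

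Ifit1 (ENSMUSG00000034459, chromosome 19 from 34640871 to 34650009), which binds foreign RNA caps, had 146, 177 and 157 normalized reads at P20 and 2621, 671 and 624 at P60, a log2 fold change of 2.69 (SE 0.50, adjusted p = 0.0241, limma). Xaf1, a pro-apoptotic interferon target, had 61.4, 93.0 and 85.1 at P20 and 439, 588 and 617 at P60, with a log2 fold change of 2.77 (SE 0.24, adjusted p = 0.00373, limma). Oas1a, an enzyme of the RNase L pathway with close copies that make its value uncertain, had 11.4, 4.43 and 12.9 at P20 and 401, 72.9 and 51.8 at P60, with a log2 fold change of 3.57 (SE 0.78, adjusted p = 0.0386, limma). Replicate 1 was the highest at P60 for Ifit1 and Oas1a, by several fold, and the lowest for Xaf1. Gbp2, an interferon-induced GTPase, had 1132, 1142 and 2068 at P20 and 5089.5, 3784 and 5907 at P60 (log2 fold change 1.80). The rises of the list numbered 2, 2 and 3 without P20 dM1/2 replicates 1, 2 and 3 in turn, and 25, 3 and 22 without P60 dM1/2 replicates 1, 2 and 3, with medians from 1.28 to 2.17. The part of replicate 1, in which the other dermal fibroblast markers were also highest, was not tested further. In the controls 12 of 32 rose and none fell, beside 6.12% of all genes tested there that rose, with a median of 0.90.

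The genes of MHC class I and antigen processing load peptides for display to T cells. Of 23 tested, 16 rose and none fell (limma), beside 3.96% of all genes tested that rose. edgeR with TMM called 16 rises and DESeq2 18, and neither called a fall. The median was 1.24 (controls 13 rises beside 6.12% of all genes tested there, median 0.82). B2m had 4821, 4924 and 6497 normalized reads at P20 and 23744, 13137 and 15262 at P60, a log2 fold change of 1.65 (SE 0.25, adjusted p = 0.0133, limma). Nlrc5, the transactivator of MHC class I genes, had 86.4, 146 and 139 at P20 and 401, 508 and 374 at P60, with a log2 fold change of 1.81 (SE 0.25, adjusted p = 0.0111, limma). H2-M3, a non-classical class I gene, had 97.8, 122 and 124 at P20 and 876, 337 and 348 at P60, with a log2 fold change of 2.03 (SE 0.37, adjusted p = 0.0221, limma). Every P60 library was above every P20 library in these genes. H2-Q6 also rose, but the H2-Q genes share nearly identical sequence and their single values are uncertain. The response element core was in 5 of the 20 genes of this list with a promoter entry and in 3 of the 13 of these that rose. The 3.44% of all promoters is of single entries. Rises in this list numbered 2, 2 and 3 without P20 dM1/2 replicates 1, 2 and 3 in turn, and 17, 10 and 16 without P60 dM1/2 replicates 1, 2 and 3, with medians from 1.09 to 1.22.

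Complement proteins opsonise and lyse targets and are made by fibroblasts as well as the liver. Of 19 tested, 10 rose and none fell (limma, median 1.59), beside 3.96% of all genes tested that rose. In controls 9 rose and 1 fell (median 0.82), beside 6.12% and 6.45% of all genes tested there. C3 (ENSMUSG00000024164, chromosome 17 from 57203970 to 57228136), the central component, had 9396, 10557 and 12307 normalized reads at P20 and 167311, 78473 and 64933 at P60, a log2 fold change of 3.15 (SE 0.36, adjusted p = 0.00701, limma). C4b, of the classical pathway and with a near-identical copy that makes its value uncertain, had 2783, 2005 and 1919.8 at P20 and 97799.5, 30572 and 15561 at P60, with a log2 fold change of 4.03 (SE 0.58, adjusted p = 0.0118, limma). C7, a part of the membrane attack complex, had 118, 57.5 and 37.0 at P20 and 1898, 908 and 562 at P60, with a log2 fold change of 3.95 (SE 0.52, adjusted p = 0.00998, limma). Replicate 1 was the highest at P60 in all of these, as it was for the other fibroblast markers. In the controls C3 also rose, from 6792, 11243 and 12261 at P20 to 106933, 73439 and 68272 at P60. Rises among the complement genes numbered 2, 2 and 2 without P20 dM1/2 replicates 1, 2 and 3 in turn, and 10, 2 and 11 without P60 dM1/2 replicates 1, 2 and 3, with medians from 1.21 to 1.86. Without P60 dM1/2 replicate 3 there were also 2 falls, and DESeq2 and a joint fit with the controls called 1 fall each beside 10 and 11 rises.

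The fibrillar collagens I and III form the bulk of the dermal matrix. Col1a1, the alpha 1 chain of type I collagen, was chosen after its values were seen. Over both ages together it was the gene with the most reads, though Gm26917 had more in P60 dM1/2 replicate 1. Col1a1 had 4295095, 3986772 and 3116629 normalized reads at P20 and 1076984, 1320827 and 1579973 at P60. Its ages did not overlap, but its log2 fold change of -1.52 (SE 1.15, adjusted p = 0.451, limma) did not pass the threshold. The SE is large beside the spread of its libraries, because limma draws the variance of a gene toward the trend at its level, and DESeq2 called the gene (adjusted p = 1.19e-09, DESeq2), while edgeR with TMM did not (adjusted p = 0.0812, edgeR). Col1a1, Col1a2 and Col3a1 together took 30.8%, 31.3% and 26.0% of the reads at P20 and 11.6%, 13.6% and 15.0% at P60. Of 28 genes of fibrillar collagens and their processing, 1 rose and 1 fell (median -0.30). These counts were near the background of 3.96% of all genes tested that rose and 2.35% that fell. DESeq2 called 2 rises and 7 falls in this list. In the fibrillar list 1 rose and 4 fell (median -0.32) without P60 dM1/2 replicate 1, and none was called without any 1 of the P20 dM1/2 libraries or without P60 dM1/2 replicate 2. The limma calls were Pcolce2, an enhancer of procollagen cleavage (5569, 5562 and 3782 at P20 and 13466, 9786 and 8743 at P60, log2 fold change 1.10, adjusted p = 0.0323, limma), and P4ha2, a prolyl hydroxylase (5205, 4085 and 3673 at P20 and 2444, 2861 and 2643 at P60, log2 fold change -0.69, adjusted p = 0.0473, limma). In the controls 14 of 28 fell and none rose (limma), with a median of -1.03. The shares of all genes tested in the controls were 6.45% that fell and 6.12% that rose. Of 24 other collagens, Col13a1, a transmembrane collagen, fell (log2 fold change -2.28, adjusted p = 0.0351, limma), while 10 fell in the controls. With DESeq2 the other collagens had 3 rises and 2 falls, and in a joint fit with the controls 2 and 3. Of these collagens 1 rose and 3 fell (median -0.17) without P60 dM1/2 replicate 1, 1 rose and 3 fell (median -0.02) without P60 dM1/2 replicate 3, and none was called without any other. Of 25 genes of elastic fibres and small proteoglycans, 6 rose and 3 fell (median 0.18, controls -0.37). Efemp1 (3593, 4433 and 3804 at P20 and 22749, 9861 and 9778 at P60, log2 fold change 1.73), Dcn (74451, 82293 and 67061 at P20 and 196685, 165580.2 and 193186 at P60, log2 fold change 1.31) and Prelp (4636, 3703 and 3963 at P20 and 10063, 7395 and 11169 at P60, log2 fold change 1.20) were the largest of the rises, which numbered 2, 0 and 0 without P20 dM1/2 replicates 1, 2 and 3 in turn, and 6, 1 and 5 without P60 dM1/2 replicates 1, 2 and 3. Fbn2, a fibrillin of growing tissue (2801, 3105 and 3011 at P20 and 1356, 543 and 701 at P60, log2 fold change -1.89), Eln, the elastin gene (81020.1, 73599 and 38002 at P20 and 20259.7, 14005 and 27238 at P60, log2 fold change -1.62), and Aspn (log2 fold change -0.92) fell. Falls of the elastic fibre and proteoglycan list numbered 1, 0 and 0 without P20 dM1/2 replicates 1, 2 and 3 in turn, and 4, 0 and 3 without P60 dM1/2 replicates 1, 2 and 3, and its median was -0.001 without P60 dM1/2 replicate 1.

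Of 23 matrix proteases and their inhibitors, 4 rose and none fell (limma), beside 3.96% and 2.35% of all genes tested. DESeq2 and a joint fit with the controls called 1 fall each. The median was 0.33 (controls -0.53 with 2 rises and 9 falls, beside 6.12% and 6.45% of all genes tested there). Mmp9, a gelatinase, had 9.10, 13.3 and 7.40 normalized reads at P20 and 60.6, 57.8 and 65.9 at P60, a log2 fold change of 2.55 (SE 0.41, adjusted p = 0.016, limma). It was low at both ages and its P60 libraries lay in a narrow range. Timp3, an inhibitor held in the matrix, had 5564, 4506 and 3399 at P20 and 14494, 11913 and 9967 at P60, with a log2 fold change of 1.45 (SE 0.22, adjusted p = 0.0143, limma). Timp2, with the most reads in the list, had 32007, 28153 and 22225 at P20 and 75472, 54225 and 50914 at P60, with a log2 fold change of 1.13 (SE 0.26, adjusted p = 0.0429, limma). Mmp2, chosen after its values were seen, rose as well (log2 fold change 0.99). Rises in the list numbered 1, 0 and 0 without P20 dM1/2 replicates 1, 2 and 3 in turn, and 6, 0 and 5 without P60 dM1/2 replicates 1, 2 and 3. Without P60 dM1/2 replicate 1, 4 genes fell and the median was 0.07, and 1 fell without P60 dM1/2 replicate 3. Mmp2 and Mmp9 are gelatinases, and Timp2 and Timp3 inhibit them.

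A list of hormone receptors and glucocorticoid targets had 2 rises and 2 falls among 18 genes (median 0.28). This list and those of the IGF pathway and FGFs were read beside 3.96% of all genes that rose and 2.35% that fell. Prlr (ENSMUSG00000005268, chromosome 15 from 10177238 to 10349180), the receptor of prolactin, a hormone known to delay hair growth, had 18698, 18519 and 24480.0 normalized reads at P20 and 989.6, 3135 and 5914 at P60, a log2 fold change of -2.95 (SE 0.56, adjusted p = 0.0255, limma). The P60 libraries spanned a wide range, all below P20. Nr3c1, the glucocorticoid receptor, had 14319, 14075 and 13519.9 at P20 and 6842, 7613 and 8522 at P60, with a log2 fold change of -0.87 (SE 0.15, adjusted p = 0.02, limma). Ghr, the growth hormone receptor, had 1392, 1379 and 1217 at P20 and 5410.2, 4493 and 2906 at P60, with a log2 fold change of 1.64 (SE 0.22, adjusted p = 0.0107, limma). In the controls Prlr fell with a log2 fold change of -0.96, and Ghr rose with 0.92. Nr3c1 was not called there (-0.25, adjusted p = 0.282, limma). Of 16 genes of the IGF pathway, Ghr and Igfbp6 rose and Igfbp3 fell. Igfbp6, which binds IGF2 preferentially, had 3434, 2645 and 1901 at P20 and 15428, 5494 and 7117 at P60 (log2 fold change 1.71), while Igf1 had 9593, 8605 and 7982 at P20 and 7412, 5421 and 6672 at P60 without a call. Of 16 FGF ligands and receptors, Fgf10 fell and Fgf16 rose, from 18.2, 15.5 and 12.9 at P20 to 95.9, 55.3 and 51.8 at P60 (log2 fold change 2.01, adjusted p = 0.0296, limma). Without P60 dM1/2 replicate 1, 4 rose and 3 fell (median 0.32) in the hormone list, 3 rose and 1 fell (median 0.11) in the IGF list and 1 rose and 4 fell (median 0.19) in the FGF list. In the hormone and IGF lists none was called without any 1 of the P20 dM1/2 libraries or without P60 dM1/2 replicate 2, and the same holds for the FGF list but for 1 fall without P60 dM1/2 replicate 2. Leaving out P60 dM1/2 replicate 3 gave 3 rises and 2 falls in the hormone list, 2 and 2 in the IGF list and 1 and 4 in the FGF list. DESeq2 called 4 rises and 2 falls in the hormone list, 3 and 2 in the IGF list and 1 and 4 in the FGF list, and a joint fit with the controls 5 and 2, 3 and 2, and 1 and 4.

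Lists of the cell cycle were read beside the 3.96% of all genes tested that rose and the 2.35% that fell. In the controls these shares were 6.12% and 6.45%. Of 30 S phase and replication genes 2 fell and none rose (limma; DESeq2 called 7 falls and no rise; median -0.66, controls 3 falls, median -0.74). They were subunits of the replicative helicase, Mcm5 (155, 232 and 322 at P20 and 78.3, 80.5 and 82.4 at P60, log2 fold change -1.48, adjusted p = 0.028, limma) and Mcm4 (873, 980.4 and 1149 at P20 and 576, 536 and 675 at P60, log2 fold change -0.75, adjusted p = 0.0377, limma). None of 30 G2 and M phase genes was called (limma, median -0.92, 6 with an unadjusted p under 0.05; edgeR called 0 and DESeq2 3 falls), beside 11 falls in the controls (median -2.02). The sums of these genes were 1116, 2892 and 4117 normalized reads at P20 and 1759.6, 1302 and 1137 at P60, so that the P20 libraries were far apart. The median was -1.53 without P20 dM1/2 replicate 1 and -0.52 without P20 dM1/2 replicate 3, and 2 genes fell without P60 dM1/2 replicate 1. Falls of the S phase list numbered 2, 0 and 0 without P20 dM1/2 replicates 1, 2 and 3 in turn, and 4, 0 and 2 without P60 dM1/2 replicates 1, 2 and 3, and its median was -0.39 without P20 dM1/2 replicate 3. Ccnd3, cyclin D3, had 3631, 3926 and 4141 normalized reads at P20 and 1394, 1667 and 1894 at P60, a log2 fold change of -1.25 (SE 0.15, adjusted p = 0.00869, limma), and the CDK4 and CDK6 inhibitor Cdkn2d had 427, 332 and 424 at P20 and 212, 209 and 221 at P60, with a log2 fold change of -0.87 (SE 0.17, adjusted p = 0.0297, limma). They fell, the calls among 14 cyclin, inhibitor and Rb genes, whose falls numbered 1, 0 and 1 without P20 dM1/2 replicates 1, 2 and 3 in turn, and 5, 1 and 4 without P60 dM1/2 replicates 1, 2 and 3. DESeq2 called 3 falls there, as did a joint fit with the controls. Of 28 direct p53 targets, Eda2r, a TNF receptor family member, rose from 109, 68.6 and 59.2 at P20 to 343, 209 and 235 at P60 (log2 fold change 1.74, adjusted p = 0.0212, limma). It was the single limma call of the list (DESeq2 called 1 rise and 1 fall), near the 3.96% of all genes that rose, and the median was 0.16. No Bcl2 family gene of 17 tested was called by limma, edgeR or DESeq2 (median -0.13, 4 with an unadjusted p under 0.05), while a joint fit with the controls called 1 fall. The p53 list had 2 rises without P60 dM1/2 replicate 1, 2 falls without P60 dM1/2 replicate 3, and no call without P20 dM1/2 replicate 2 or 3 or P60 dM1/2 replicate 2. The Bcl2 family had 1 rise without P60 dM1/2 replicate 1 and 2 falls without P60 dM1/2 replicate 3.

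**Figure D5:**
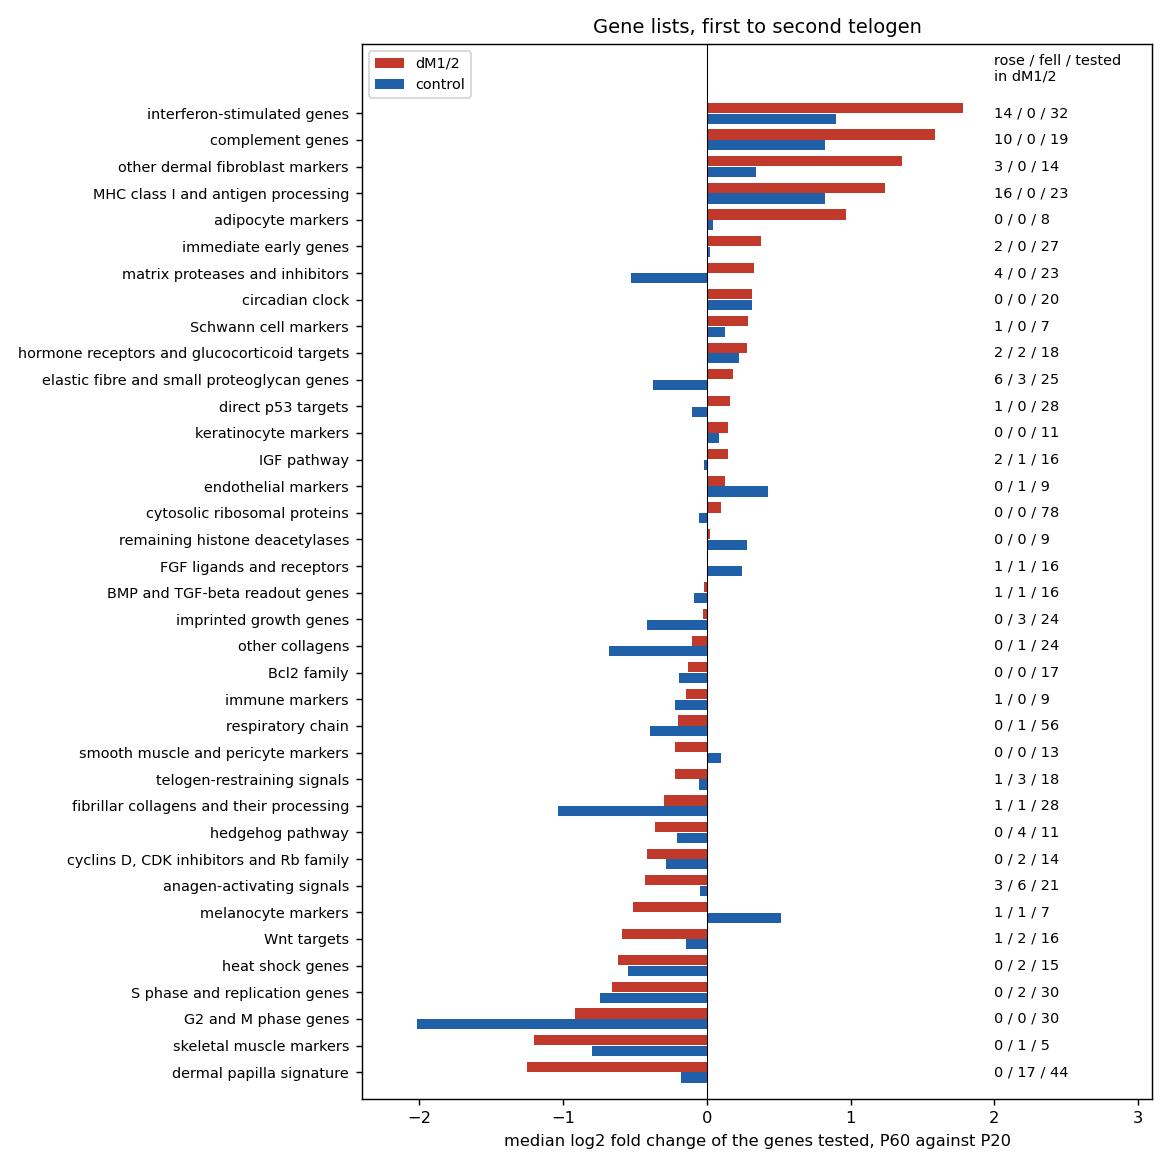
Median log2 fold change between P60 and P20 of the genes of each list with at least 5 genes tested, in dM1/2 (red) and controls (blue), with the numbers that rose, fell and were tested in dM1/2 at the right. Interferon-stimulated genes have the highest median (1.78) and the DP signature the lowest (-1.25) in dM1/2.

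The same comparison in control mice, which shares no library with the one in dM1/2, called 1746 of 13900 genes (12.6%), 850 of them higher at P60 (6.12%) and 896 lower (6.45%). 441 genes were called in both genotypes, all of them in the same direction. They were 49.6% of the 889 dM1/2 calls and 25.3% of the 1742 control calls among genes tested in both. 834 of the dM1/2 calls had a control fold of the same sign. A call in one genotype alone is no difference between them, so that the difference of the changes was tested in a fit over the 12 telogen libraries. No gene of 14037 passed (0%, limma), while 1756 (12.5%) had an unadjusted p under 0.05. edgeR called 1 gene with TMM scaling and 0 with the deposited size factors, and DESeq2 called 169. In simulated data with such a difference, DESeq2 exceeded the limit set on false calls. How many of the 169 calls this affects was not tested. Leaving out P60 dM1/2 replicate 3 gave 21 calls, leaving out P60 dM1/2 replicate 1 gave 4, and leaving out P20 control replicate 1 or 2 gave 1 each (limma). The count in controls was 2796, 983 and 527 genes without P20 control replicates 1, 2 and 3 in turn, and 1039, 760 and 1027 without P60 control replicates 1, 2 and 3.

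The gene with the smallest p for this difference, and so chosen after its values were seen, was Fut9 (ENSMUSG00000055373, chromosome 4 from 25609332 to 25800244), the fucosyltransferase that makes the Lewis x antigen. It had 236, 201 and 253 normalized reads at P20 and 15.1, 17.6 and 32.9 at P60 in dM1/2, and 206, 54.1 and 143 at P20 and 225, 276 and 293 at P60 in controls. In dM1/2 the ages were far apart, with a log2 fold change of -3.41 (SE 0.34, adjusted p = 0.00562, limma), while the control libraries were all higher at P60 and not called. The changes differed by -4.57 on the log2 scale (adjusted p = 0.053, limma), just short of the threshold. Pcsk6 (3.17, adjusted p = 0.174, limma) and Sox18 (-2.19, adjusted p = 0.205, limma) had larger adjusted p. Of the 44 DP signature genes, 20 had an unadjusted p under 0.05 for the difference, 19 of them with the lower change in dM1/2, beside 12.5% of all genes. Of the 28 fibrillar collagen genes it was 15, all with the higher change in dM1/2, and of the 25 elastic fibre and proteoglycan genes 11, likewise. Of the 32 interferon-stimulated genes it was 2 and of the 19 complement genes 3. None of these genes passed after adjustment (limma), and no change is called particular to dM1/2.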

How the data were processed

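RNA-seq of sorted DP cells from 24 libraries was taken from the deposited tables of gene values. Per the deposited records the authors used Trimmomatic for trimming, TopHat2 (version 2) for alignment to mm10, HTSeq for counting per Ensembl gene (GRCm38.p4) and DESeq2 for normalization. The signal values the authors deposited are counts divided by DESeq2 size factors over all 24 libraries, and every value was a whole number of reads (tolerance 0.01 reads). The authors' comparison columns were not used.

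Values of the 6 telogen dM1/2 libraries were joined by Ensembl identifier, and 25431 of 25755 genes matched the annotation. limma (3.58.1, R 4.3.3, trend) tested log2(normalized reads + 1) of genes with a mean of 10 or more, with two-sided p adjusted over all genes tested (Benjamini-Hochberg, threshold 0.05), in dM1/2, in controls and for the difference (12 libraries). The tests were checked on simulated data. A limit on false calls, first set for every tool, was exceeded by DESeq2 for the difference, though not within a genotype, and was then held to limma, the reported test. Named genes were Hdac1, Hdac2, the 12 largest rises and falls without overlap of the ages and a mean of at least 50 in the higher age, up to 3 called members each way per pathway list, any member of the DP signature and the anagen and telogen signal lists, and in marker lists the called genes and the gene with the most reads. Members and lists were chosen with earlier results of these data known. Alternatives were a pseudocount of 10, other filters, edgeR (4.0.16), DESeq2 (1.42.0), log2-CPM, a replicate block, a joint fit, stricter thresholds and leaving out each library. Replicate numbers do not pair mice. Figures were drawn with matplotlib (3.10.9) and Python (3.11.15).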

Additional observations from a re-analysis of the deposited data

How the results depend on the processing

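The number of genes called in dM1/2 depended on the libraries and tools. It was 892 as reported, 1852 with DESeq2, 1947 in a joint fit with the controls and 95 at an adjusted p under 0.01. With each library left out in turn it ran from 100 to 1772, lowest without P20 dM1/2 replicate 2 (100) and highest without P60 dM1/2 replicate 1 (1772). In controls it was 1746 as reported, 462 at an adjusted p under 0.01, 835 with a change of 1 or more in size on the log2 scale required too, and 527 to 2796 with a library left out, lowest without P20 control replicate 3 and highest without P20 control replicate 1. With replicate numbers as blocks it was 923 in controls and 795 in dM1/2, but the numbers do not pair mice. For the difference, limma called 0, a pseudocount of 10 gave 1, no filter 2, edgeR with TMM 1, log2-CPM 1, DESeq2 169, and leaving out a library 0 to 21, with 21 without P60 dM1/2 replicate 3, 4 without P60 dM1/2 replicate 1, and 1 without P20 control replicate 1 or 2. The cause was not tested.

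Of 1653 log2 fold changes of named genes under alternatives, 1267 kept direction and side of the threshold, 379 kept direction but lost the call, 7 gained one and 0 changed sign. Of 679 list medians, 39 moved by more than the spread between libraries. The stricter thresholds, the replicate block and the joint fit leave the log2 fold change of a gene as it is. Under these settings no sign could change, and a median could move only where other genes were tested. The spread also includes P60 dM1/2 replicate 1, which stood apart, so that a median had to move far to count. These tallies are therefore no full measure of how stable the results are.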

Other observations

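Many imprinted growth genes are switched off as tissues mature. Of 24 tested in dM1/2, 3 fell and none rose (limma), beside 2.35% and 3.96% of all genes tested. DESeq2 called 2 rises and 5 falls and a joint fit with the controls 1 and 5. The median was -0.03 (controls 5 falls beside 6.45% of all genes tested there, median -0.42). H19, a maternally expressed noncoding RNA, had 618, 1529 and 923 normalized reads at P20 and 187, 65.4 and 61.2 at P60, a log2 fold change of -3.38 (SE 0.48, adjusted p = 0.0111, limma). Dio3, which inactivates thyroid hormone, had 54.6, 93.0 and 161 at P20 and 17.7, 10.1 and 9.41 at P60, with a log2 fold change of -2.87 (SE 0.49, adjusted p = 0.0195, limma). Snrpn, a splicing factor gene that shares its bases with another gene model on the same strand, had 114, 126 and 107 at P20 and 35.3, 32.7 and 47.1 at P60 (log2 fold change -1.58). H19 fell in controls too, from 833, 3138 and 1727 at P20 to 71.4, 52.4 and 55.3 at P60, while Dio3 had 61.6, 40.6 and 43.0 at P20 and 44.1, 42.9 and 62.2 at P60 there. Falls of the list numbered 1, 0 and 0 without P20 dM1/2 replicates 1, 2 and 3 in turn, and 8, 0 and 4 without P60 dM1/2 replicates 1, 2 and 3. Without P60 dM1/2 replicate 1, 2 genes rose and the median was -0.35, and 1 rose with a median of 0.12 without P60 dM1/2 replicate 3. The cause was not tested.

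Lists of basic cell functions were read beside the 3.96% of all genes tested that rose and the 2.35% that fell. With limma none of 78 cytosolic ribosomal protein genes was called (median 0.10, 3 with an unadjusted p under 0.05), and neither was any of 20 circadian clock genes (median 0.32, 7 with an unadjusted p under 0.05). DESeq2 called 1 rise among the former and 3 among the latter, as did a joint fit with the controls, and edgeR called 0 and 0 with TMM and 0 and 1 with the deposited size factors. A pseudocount of 10 gave 1 clock gene. Without P60 dM1/2 replicate 1 the ribosomal median was -0.04, again with no call. Of 56 respiratory chain genes, Atp5g1 fell (log2 fold change -0.72, adjusted p = 0.0351, limma), with a median of -0.20 and 8 genes at an unadjusted p under 0.05. Of 15 heat shock genes, Hspb1 (log2 fold change -1.11, adjusted p = 0.0377, limma) and Hspd1 (log2 fold change -0.75, adjusted p = 0.0381, limma) fell, with a median of -0.62 and 8 genes at an unadjusted p under 0.05. DESeq2 called 5 falls among them, a replicate block gave 5 and a joint fit with the controls 1. Zfp36, which destabilises cytokine mRNAs, rose from 20729, 16731 and 17914 normalized reads at P20 to 51421, 34165 and 42709.6 at P60 (log2 fold change 1.20, adjusted p = 0.0239, limma) and was, with Myc, one of the calls among 27 immediate early genes (median 0.38). DESeq2 called 9 rises in this list, a joint fit with the controls 7 and edgeR with TMM 3. The immediate early list had rises of 0, 0 and 0 without P20 dM1/2 replicates 1, 2 and 3 in turn, and 4, 1 and 1 without P60 dM1/2 replicates 1, 2 and 3. In the heat shock and respiratory chain lists none was called without any 1 of the P20 dM1/2 libraries or without P60 dM1/2 replicate 2, and 4 clock genes rose without P60 dM1/2 replicate 1. The falls were 2 and 2 in the heat shock and respiratory chain lists without P60 dM1/2 replicate 1, and 2 and 2 without P60 dM1/2 replicate 3. Immediate early genes also respond to dissociation and sorting, whose part was not tested.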
